A study of Capra hircus with 6 samples.

Results

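Oxytocin and vasopressin, their receptors, the release factor CD38 and the peptidase LNPEP were examined in the hypothalamus of female goats before and at puberty. The members were the 6 genes OXT, AVP, OXTR, AVPR1A, CD38 and LNPEP, chosen by name and not by their values. Of these, 5 had a transcript in the mRNA table of 20225 genes and 30679 transcripts, and 4 reached the mean of 0.1 FPKM set for the test. FPKM is the number of fragments scaled for the length of the transcript and for the mapped fragments of the library, so it allows genes to be compared within a library. The study compared 3 pubertal Anhuai goats, aged 4.5 to 5.0 months, with 3 prepubertal Anhuai goats, aged 2.5 to 3.0 months, with 1 hypothalamus library per goat and no treatment. Puberty was recognised from oestrus detected by male goats and from the appearance of the vulva. The methods of the study state that the pubertal goats were killed in the late follicular phase and were heavier on average. Stage cannot be told apart from age, body weight or phase of the cycle in this design. The tissue was whole hypothalamus, so fewer cells of a type and less RNA per cell cannot be told apart in any value given here.

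Oxytocin and vasopressin are short peptides cut from larger precursors, and both are made mainly by large neurons of the paraventricular and supraoptic nuclei, whose axons end in the posterior pituitary. Oxytocin acts through OXTR, and vasopressin through AVPR1A, AVPR1B and AVPR2, all of them receptors that couple to G proteins. CD38 is a membrane enzyme that turns NAD into cyclic ADP-ribose, a messenger that releases calcium inside the cell, and mice without Cd38 release less oxytocin. LNPEP, also called oxytocinase or placental leucine aminopeptidase, is a membrane peptidase that cuts oxytocin and vasopressin. In ruminants, as in other mammals, oxytocin also takes part in labour and milk ejection.

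None of the 4 members tested differed between the stages in limma, which was fitted across all 16397 genes on log2(FPKM + 1) with Benjamini-Hochberg adjustment. Of all genes tested, 0 of 16397 (0.0%) had an adjusted p under 0.05 in limma, and the smallest adjusted p was 0.23. At an unadjusted p under 0.05 there were 846 genes (5.16%), of which 575 (3.51%) were higher and 271 (1.65%) lower in the pubertal goats, and none was a member. The stages did not overlap for 1598 genes (9.75%), 969 (5.91%) higher and 629 (3.84%) lower in the pubertal goats, and all 4 members tested overlapped. The members differed far more from each other than between the stages. LNPEP stood between 35.9 and 41.5 FPKM and CD38 between 7.24 and 23.1 FPKM, whereas both receptors lay under 1 FPKM in every library.

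**Figure D1:**
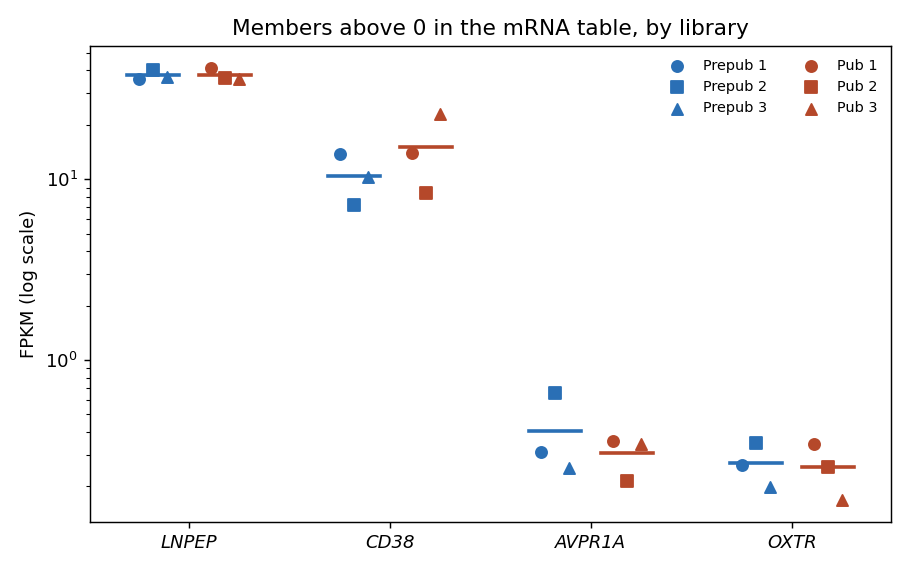
FPKM (log scale) of the 4 members above 0, 1 symbol per library, prepubertal goats in blue and pubertal goats in red, with a bar at the mean of each stage. LNPEP is nearly level at 35.9 to 41.5, CD38 spreads from 7.24 to 23.1, and the receptors AVPR1A and OXTR lie between 0.168 and 0.654, with both stages overlapping for each gene.

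The genes of the peptides themselves gave no usable level. OXT (gene ID 108637398 in the RefSeq table of the ARS1.2 assembly) was matched to no transcript and was not analysed here. AVP (gene ID 106502757), the vasopressin precursor gene, has 1 transcript of 309 nt, XM_013968628.1, which was listed at 0 in all 6 libraries. A listed 0 is not absence in this table: MBP, a major myelin gene, was listed at 0 in prepubertal goat 1 and at 425 to 3330 FPKM in the other goats, while the myelin gene MAG had 101 to 152 FPKM in the 6 libraries. Short transcripts were often at 0. Of the 502 transcripts of 200 to 399 nt, 138 (27.5%) were at 0 in all 6 libraries, against 1050 of 21168 (4.96%) with 1000 to 4999 nt. AVP and OXT lie next to each other in the ARS1.2 gene order, and the genes on both sides had values: UBOX5 ranged from 4.69 to 6.74 FPKM and MRPS26, a mitochondrial ribosome gene, from 83.6 to 113 FPKM. These neighbours and the myelin genes were chosen after their values were seen. Whether AVP or OXT differed between the stages was not tested.

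OXTR (gene ID 102185124), the oxytocin receptor gene, was read from 1 transcript of 5389 nt, XM_005695703.2. Its level was 0.345, 0.255 and 0.168 FPKM in pubertal goats 1 to 3, and 0.261, 0.348 and 0.198 FPKM in prepubertal goats 1 to 3. The highest and the second highest value came from different stages, and the stages overlapped throughout. The means were 0.256 ± 0.0885 FPKM in the pubertal and 0.269 ± 0.0755 FPKM in the prepubertal goats (SD, n = 3 each), and the log2 fold change was -0.02 (SE 0.11, 95% confidence interval -0.27 to 0.24, adjusted p in limma 0.996). The exact two-sided permutation test over libraries gave p = 0.7, where the smallest p it allows is 0.1. OXTR stood between percentiles 20.6 and 25.3 in the 6 libraries, ranked among all 20225 genes of the mRNA table, which include those too low to be tested. On the log2(FPKM + 1) scale a change in so low a gene is compressed, so the interval says little about its true fold.

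AVPR1A (gene ID 102184883), the vasopressin receptor gene of brain, liver and vessels, was read from XM_013963910.1 of 1250 nt. It stood at 0.358, 0.215 and 0.343 FPKM in the pubertal goats, and at 0.309, 0.654 and 0.253 FPKM in the prepubertal goats. Prepubertal goat 2 held the highest value by far, and the other 5 libraries lay between 0.215 and 0.358 FPKM. The means were 0.306 ± 0.0785 and 0.405 ± 0.217 FPKM in the pubertal and prepubertal goats, and the log2 fold change was -0.10 (SE 0.14, interval -0.41 to 0.22, adjusted p in limma 0.969; exact permutation p = 0.7). Without prepubertal goat 2 the log2 fold change turned to 0.03. The other vasopressin receptors were at or near 0. AVPR1B, the receptor of pituitary corticotrophs, was above 0 only in pubertal goat 2, at 0.0421 FPKM, and AVPR2, the kidney receptor, only in prepubertal goats 1 and 3, at 0.0540 and 0.0459 FPKM.

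LNPEP (gene ID 102186394) was the most abundant member and the steadiest. Its transcript XM_005683454.2 of 3646 nt stood at 41.5, 36.1 and 35.9 FPKM in the pubertal goats, and at 35.9, 40.1 and 36.7 FPKM in the prepubertal goats. The lowest value occurred in both stages, and the highest exceeded it by a factor of 1.15. The means were 37.8 ± 3.14 and 37.6 ± 2.22 FPKM, the log2 fold change was 0.01 (SE 0.09, interval -0.21 to 0.22, adjusted p in limma 0.998) and the exact permutation p was 0.9. As a fold on the FPKM + 1 scale the interval runs from 0.867 to 1.17, which bounds any stage difference of LNPEP more closely than that of the other members. Its coefficient of variation over the 6 goats, the SD as a percentage of the mean, was 6.46%, against a median of 10.2% over 8550 genes with a mean of 5 to 50 FPKM.

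CD38 (gene ID 102172881) varied most between goats. Its transcript XM_005681912.2 of 2282 nt stood at 13.9, 8.42 and 23.1 FPKM in the pubertal goats, and at 13.8, 7.24 and 10.3 FPKM in the prepubertal goats. Pubertal goat 3 was highest of all, but pubertal goat 2 was second lowest, and pubertal goat 1 was level with prepubertal goat 1. The means were 15.1 ± 7.39 FPKM in the pubertal and 10.5 ± 3.28 FPKM in the prepubertal goats, a ratio of 1.45. The difference was smaller than the SD of the pubertal goats and larger than that of the prepubertal goats. The log2 fold change was 0.43 (SE 0.34, interval -0.34 to 1.20, adjusted p in limma 0.962), and the exact permutation p was 0.4. The interval allows folds from 0.788 to 2.30 on the FPKM + 1 scale.

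The CD38 estimate rested on single goats. Without pubertal goat 3 the log2 fold change was 0.09, and without prepubertal goat 2 it was 0.21. Without pubertal goat 2 it was 0.77 (interval 0.09 to 1.44), the stages no longer overlapped, and the adjusted p in limma was 0.690. The estimate stayed above 0 in all 6 fits that left out 1 goat, and no adjusted p passed 0.05 in any of them. The lowest adjusted p of CD38 over all alternatives was 0.671.

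**Figure D2:**
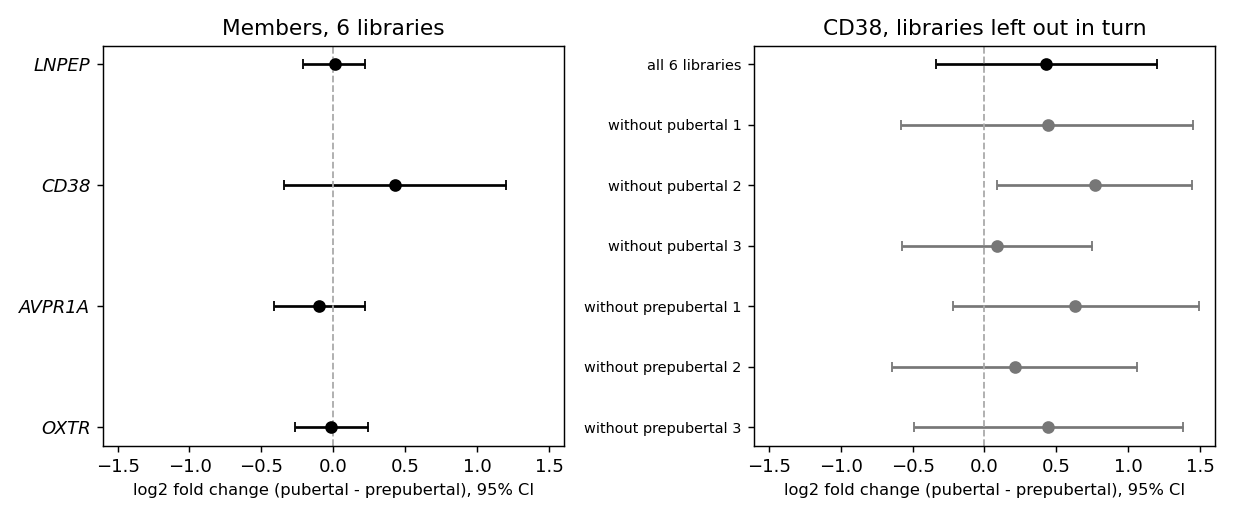
Log2 fold change (pubertal minus prepubertal, on the log2(FPKM + 1) scale) with its 95% confidence interval from limma, for the 4 members in 6 libraries (left) and for CD38 with each library left out in turn (right). All 4 member intervals cross 0, and the CD38 estimate moves between 0.09 and 0.77 with the library that is left out.

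The coefficient of variation of CD38 was 44.7%, higher than that of 98.4% of the 8550 genes with a mean of 5 to 50 FPKM. LNPEP, within the same band of levels, exceeded only 15.6% of those genes. The receptors varied by 28.1% (OXTR) and 43.8% (AVPR1A), against a median of 47.8% over 2316 genes with a mean of 0.1 to 1 FPKM. The spread of CD38 was therefore wide for its level and that of the receptors was not.

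**Figure D3:**
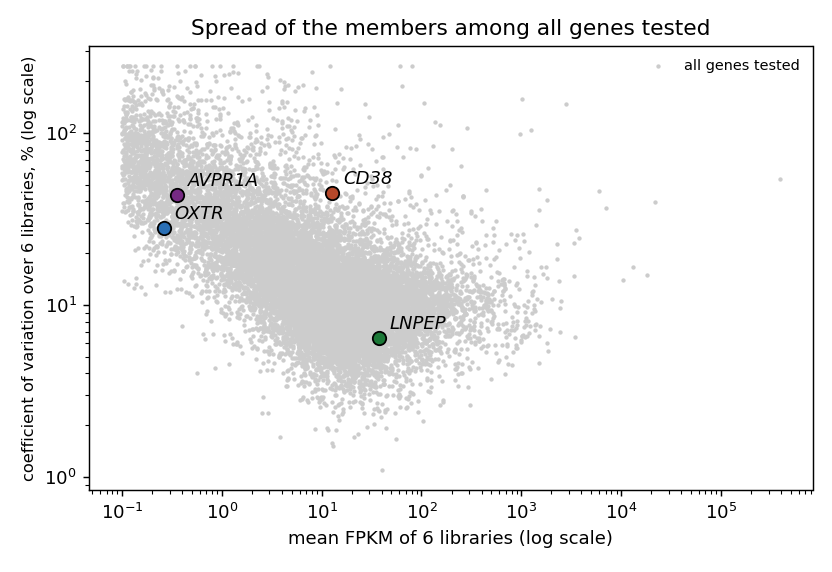
Coefficient of variation over the 6 libraries (%, log scale) against mean FPKM (log scale) for all 16397 genes tested (grey) and the 4 members. CD38, at 44.7%, sits in the upper part of the genes of its level, whereas LNPEP, at 6.46%, sits in their lower part.

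Markers of other cell types were set beside CD38, which is also made by lymphocytes and endothelial cells. The summed FPKM of 8 lymphocyte markers was 27.8, 23.4 and 25.3 in the pubertal and 19.5, 25.5 and 23.5 in the prepubertal goats, and 7 of the 8 had a log2 fold change above 0. Among them JCHAIN ranged from 8.36 to 11.5 FPKM and PTPRC, made by all leukocytes, from 8.51 to 13.1 FPKM, whereas the B cell markers MS4A1, CD79A and CD79B reached at most 0.569 FPKM in any library. CD2 (means 0.542 and 0.0923 FPKM, adjusted p in limma 0.759) and MS4A1 (0.215 and 0.0767 FPKM, adjusted p in limma 0.962) were higher in the pubertal goats without overlap. Over all genes tested, 5.91% were higher without overlap. The T cell markers CD3E (2.15 and 2.39 FPKM) and CD3D (0.469 and 0.444 FPKM) overlapped, as did the other lymphocyte markers. The summed FPKM of the 4 matched endothelial markers was 33.0, 25.7 and 36.5 in the pubertal and 21.0, 29.0 and 27.5 in the prepubertal goats, and all 4 had a log2 fold change above 0. VWF, 1 of them, was higher in the pubertal goats without overlap (6.46 and 3.97 FPKM, adjusted p in limma 0.795). Pubertal goat 3 was thus highest in both CD38 and the endothelial sum, whereas prepubertal goat 1, next after pubertal goats 3 and 1 in CD38, had the lowest endothelial sum. The 7 microglia markers summed to 297 to 357 FPKM in the pubertal and 279 to 322 FPKM in the prepubertal goats. Of these, C1QA (52.5 and 39.1 FPKM) and C1QB (44.8 and 33.2 FPKM) were higher in the pubertal goats without overlap (adjusted p in limma 0.795 and 0.842). The other microglia markers overlapped. P2RY12 (43.2 and 49.3 FPKM) and AIF1 (77.6 and 77.8 FPKM) were lower in the pubertal goats, and TMEM119, CSF1R and CX3CR1 had a log2 fold change above 0. The median log2 fold change of the 7 microglia markers was 0.07. The part of these cells in the CD38 values was not tested.

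The labelled tissue was checked against hypothalamic markers. GNRH1, GHRH, POMC, AGRP, NR5A1 and PMCH were above 0 in all 6 libraries, and their sum ranged from 1080 to 2270 FPKM in the pubertal and from 1180 to 2240 FPKM in the prepubertal goats. Most of this sum was PMCH, at 673 to 2170 FPKM, so it hides uneven single markers. POMC stood at 34.4, 85.1 and 429 FPKM in the pubertal and at 47.4, 22.9 and 24.3 FPKM in the prepubertal goats. AGRP stood at 22.7, 5.69 and 28.3 FPKM in the pubertal and at 97.5, 176 and 22.3 FPKM in the prepubertal goats. Both genes overlapped between the stages. GNRH1 was higher in the pubertal goats without overlap (means 14.5 and 7.95 FPKM, adjusted p in limma 0.779), whereas GHRH, NR5A1 and PMCH overlapped. The 5 matched anterior pituitary markers summed to 46.2 to 66.0 FPKM in the pubertal and 3.75 to 20.9 FPKM in the prepubertal goats. CGA, the hormone subunit gene also made in the pars tuberalis, stood at 50.1, 62.5 and 39.4 FPKM in the pubertal and at 2.24, 18.0 and 3.32 FPKM in the prepubertal goats (adjusted p in limma 0.639). TSHB, the thyrotropin subunit gene, stood at 2.46, 2.33 and 4.04 FPKM in the pubertal and at 0.724, 1.84 and 0 FPKM in the prepubertal goats (adjusted p in limma 0.795). Neither gene overlapped between the stages, whereas LHB, above 0 in all 6 libraries, had means of 0.855 and 0.844 FPKM and overlapped. FSHB and POU1F1 were at 0 in 4 and 3 of the 6 libraries and highest, at 1.09 and 0.539 FPKM, in pubertal goat 3, the goat highest in CD38. Astrocyte markers summed to 4200 to 4550 and 4300 to 4470 FPKM, and neuron markers to 1060 to 1290 and 1190 to 1320 FPKM in the pubertal and prepubertal goats. Most of the astrocyte sum was GFAP, at 2270 to 2700 FPKM. ALDH1L1, another astrocyte marker, stood at 11.4, 15.2 and 19.0 FPKM in the pubertal and at 11.1, 8.02 and 9.13 FPKM in the prepubertal goats. It did not overlap (adjusted p in limma 0.795), whereas the other astrocyte markers did. Of the neuron markers only SLC32A1 did not overlap, with means of 13.6 and 16.6 FPKM (adjusted p in limma 0.958). Oligodendrocyte markers summed to 1100 to 4270 and 709 to 1850 FPKM in the pubertal and prepubertal goats. The oligodendrocyte sum includes MBP with its listed 0, and the other markers overlapped, with means of 99.8 and 92.7 FPKM for MOG, 143 and 125 FPKM for MAG, and 508 and 550 FPKM for MOBP. Markers of blood summed to 2.29 to 3.63 and 2.5 to 3.35 FPKM, and those of forebrain outside the hypothalamus to 25.9 to 26.3 and 18.0 to 25.9 FPKM. The part of such differences in tissue in the member values was not tested.

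The order of the levels was LNPEP, CD38, AVPR1A and OXTR. It was set by the mean FPKM of these same 6 libraries, so the p-values of neighbours below are a description and not independent evidence. LNPEP was above CD38 in 6 of 6 libraries, by 1.56 to 5.54 times, and the difference in log2(FPKM + 1) was 1.58 ± 0.59 (SD, n = 6, exact two-sided sign-flip permutation p = 0.0312, adjusted over 3 neighbour pairs 0.0469). CD38 was above AVPR1A in 6 of 6 libraries, by 11.1 to 67.2 times, with a difference of 3.26 ± 0.62 and the same exact p, the smallest that 6 libraries allow. AVPR1A was above OXTR in 5 of 6 libraries, by 0.10 ± 0.13 on the log2(FPKM + 1) scale (exact permutation p = 0.0938, adjusted 0.0938), so the order of these 2 receptors did not hold beyond their spread.

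The members did not vary together over the goats beyond what 6 libraries allow to be told. In 6 pairs the largest correlation was that of LNPEP with OXTR (Pearson r = 0.849, permutation p = 0.0597, adjusted 0.358; Spearman rho = 0.714, permutation p = 0.136, adjusted 0.596). It rested on pubertal goat 1 and prepubertal goat 2, both high in LNPEP and OXTR: without them r was -0.19. CD38 had an r of -0.551 with OXTR, -0.285 with LNPEP and -0.216 with AVPR1A, with rho of -0.486, -0.371 and 0.0857. The adjusted permutation p of these pairs was 0.37, 0.621 and 0.621 for r, and 0.596, 0.596 and 0.919 for rho. Leaving out the 2 goats most distant from the median of the first gene gave r of 0.596 for CD38 with OXTR, -0.569 for LNPEP with CD38 and 0.952 for CD38 with AVPR1A. LNPEP with AVPR1A had r = 0.606 and rho = 0.429, and AVPR1A with OXTR r = 0.602 and rho = 0.600 (adjusted permutation p = 0.37 for each r and 0.596 for each rho, with r of -0.571 and 0.455 without the 2 most distant goats).

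The genes nearest to each member in pattern were described by the Pearson r of their log2(FPKM + 1) values (6 libraries), among about 14080 genes with a mean of at least 1 FPKM. CD38 was followed most closely by TSPAN18, a tetraspanin gene (r = 0.990), PQLC3 (0.978) and EXOSC7, a subunit of the RNA exosome (0.975). TSPAN18 stood at 2.23, 1.79 and 3.17 FPKM in the pubertal and at 2.43, 1.64 and 2.04 FPKM in the prepubertal goats, with the same goats highest and lowest as for CD38. LNPEP was followed by CAGE1 (0.997), TMEM170A (0.995) and AFF4, a gene of the super elongation complex (0.993). AVPR1A was followed by METTL23 (0.998), ACADSB, a mitochondrial acyl-CoA dehydrogenase (0.993), and ZNF789 (0.985), and all 3 were highest in prepubertal goat 2. OXTR was followed by SFR1 (0.988), CDKL1 (0.985) and ZNF432 (0.983). With 6 libraries such values are common: 93 genes passed an r of 0.95 with LNPEP, 35 with OXTR, 24 with AVPR1A and 12 with CD38.

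The study pairs CD38 with the long noncoding RNA XLOC_523219 through expression in these same libraries, so their relation is not independent evidence. Its transcript TCONS_01037974 has 257 nt and 52.9% G and C. The sequence is shown because this lncRNA had the second highest correlation with CD38 among all lncRNA transcripts. Capitals mark AATAAA, the usual polyadenylation signal, found once on the given strand at base 240 with 12 bases after it.
XLOC_523219: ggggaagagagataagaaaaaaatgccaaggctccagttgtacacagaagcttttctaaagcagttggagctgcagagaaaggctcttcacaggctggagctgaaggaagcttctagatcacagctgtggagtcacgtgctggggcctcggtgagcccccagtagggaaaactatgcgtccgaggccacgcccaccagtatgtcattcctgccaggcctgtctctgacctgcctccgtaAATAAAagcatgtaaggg
Of the 2943 lncRNA transcripts, 198 (6.73%) held AATAAA in their last 50 bases, and 2.72% held its reverse complement TTTATT there. The match is a description of the letters only.

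XLOC_523219 stood at 2.37, 0 and 8.16 FPKM in the pubertal goats, and at 2.05, 0 and 0 FPKM in the prepubertal goats. It was above 0 in the 3 goats highest in CD38 and listed at 0 in the other 3, in which CD38 was 7.24 to 10.3 FPKM. The depth behind these values is unknown, so a listed 0 of so short a transcript need not be absence. The correlations below take it as 0. Pearson r with CD38 over the 6 libraries was 0.978 (exact permutation p = 0.00833) and Spearman rho 0.941 (exact permutation p = 0.0167). The 3 values tied at 0 allow no smaller p in either test. These p-values are not adjusted for the 2943 lncRNA transcripts. As the pair was chosen by its expression in these libraries, they are a description only. After the stage means were taken out, r was 0.973. Without pubertal goat 3 r was 0.929, and without pubertal goats 1 and 3, the goats most distant from the median of the lncRNA, it was 0.895. With 1 library left out, the exact permutation p of r was 0.05 without any 1 of the 3 goats above 0, and 0.0167 without any 1 of the 3 goats at 0. Each is the smallest p that the values tied at 0 allow. An absolute r above 0.95 was reached with CD38 by 11 of 2943 lncRNA transcripts (0.374%), with LNPEP by 22 (0.748%), with AVPR1A by 23 (0.782%) and with OXTR by 7 (0.238%).

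**Figure D4:**
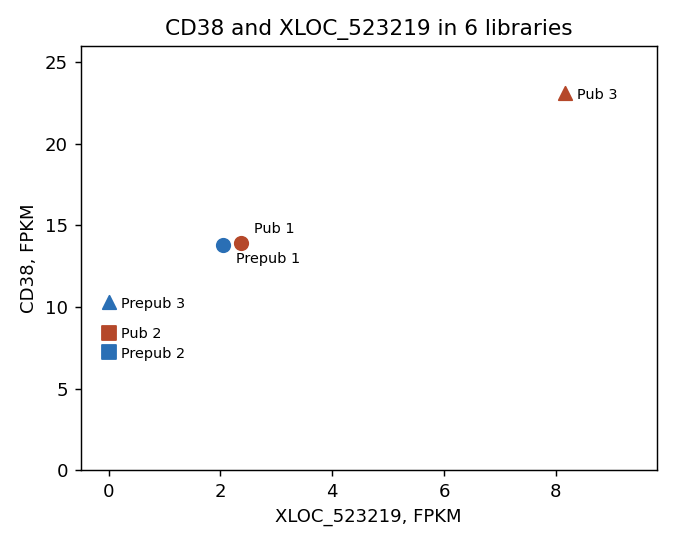
FPKM of CD38 against FPKM of XLOC_523219 in the 6 libraries (r = 0.978), prepubertal goats in blue and pubertal goats in red. Pubertal goat 3 is highest in both, pubertal goat 1 and prepubertal goat 1 lie together, and the 3 goats with XLOC_523219 listed at 0 have the lowest CD38.

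Genes beside the members in the ARS1.2 gene order gave a further view. BST1, the other ADP-ribosyl cyclase gene and the direct neighbour of CD38, stood at 1.12, 1.03 and 4.07 FPKM in the pubertal and at 1.03, 1.29 and 1.91 FPKM in the prepubertal goats. Like CD38, BST1 was highest in pubertal goat 3, but pubertal goat 1 and prepubertal goat 1 were among its lower values. FBXL5, on the same side of CD38, ranged only from 86.5 to 104 FPKM. On one side of LNPEP lie ERAP2 and ERAP1, related peptidases that trim antigens in the endoplasmic reticulum, at 3.02 to 4.27 and 4.34 to 6.97 FPKM, below LNPEP in every library. OXTR lies between RAD18, a DNA repair gene at 3.44 to 4.16 FPKM, and CAV3, a muscle caveolin gene listed at 0 in all 6 libraries. These neighbours were chosen after values were seen.

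In 9 lists of other genes of the system, 87 of 92 genes were tested. None had an adjusted p under 0.05 in limma, 5 (5.75%) had an unadjusted p under 0.05, and 10 (11.5%) did not overlap between the stages, shares near those of all genes (5.16% and 9.75%). Their median log2 fold change was 0.02, against -0.00 over all genes tested. The plot of these lists shows each gene's log2 fold change.

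**Figure D5:**
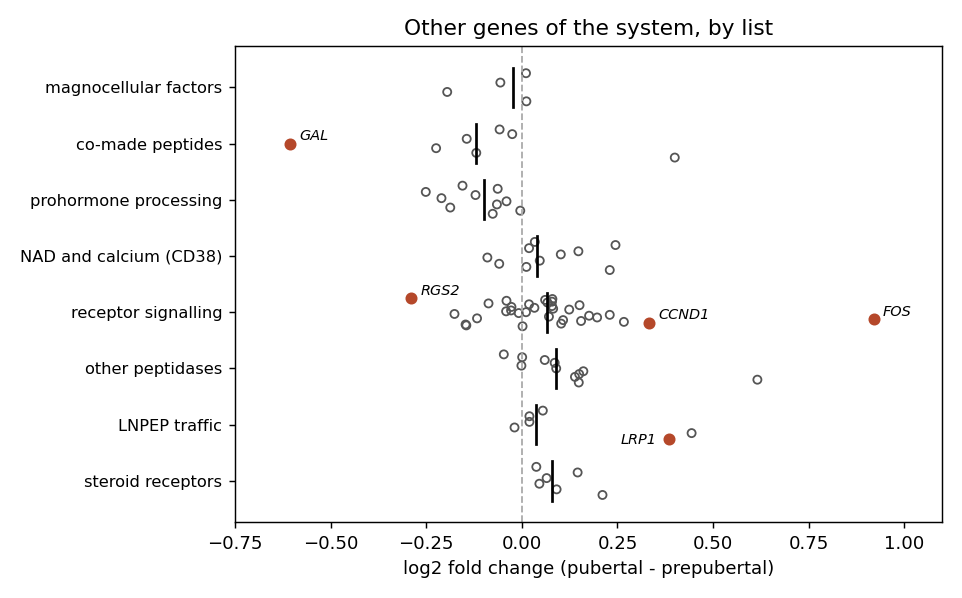
Log2 fold change (pubertal minus prepubertal, log2(FPKM + 1) scale) of the 87 list genes tested, 1 circle per gene, with a bar at the median of each list. The 5 filled circles are the genes with an unadjusted p under 0.05 in limma, and none of them passed after adjustment.

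None of the 4 transcription factors that specify oxytocin and vasopressin neurons passed the test in limma, and both stages overlapped for each. ARNT2, the partner of SIM1, had means of 30.3 ± 1.45 and 30 ± 0.359 FPKM in the pubertal and prepubertal goats, SIM1 3.58 ± 0.478 and 3.54 ± 0.539 FPKM, POU3F2 6.04 ± 0.508 and 6.31 ± 0.252 FPKM, and OTP 0.736 ± 0.345 and 0.967 ± 0.172 FPKM. All 4 factors were above 0 in every library. How many oxytocin and vasopressin neurons each library held was not tested. Among 7 tested peptides made in the same nuclei, 1 had a log2 fold change above 0 and the median was -0.12. PDYN, the dynorphin precursor gene of vasopressin neurons, had 62.6 ± 7.68 and 64.4 ± 13.3 FPKM. GAL, the galanin gene, had 26.5 FPKM in the pubertal and 39.6 FPKM in the prepubertal goats (log2 fold change -0.60, unadjusted limma p 0.0366, adjusted 0.938), and was named after its value was seen.

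The 10 genes of dense-core granules and prohormone processing held none with a log2 fold change above 0, with a median of -0.10 and none past the test. SCG2, the most abundant of them, stood at 811, 685 and 591 FPKM in the pubertal and at 831, 870 and 765 FPKM in the prepubertal goats. The sum of the list was 2660 to 2970 FPKM in the pubertal and 3070 to 3370 FPKM in the prepubertal goats. The 6 neuron markers, too, all had a log2 fold change under 0, with a median of -0.13, and the part of neuron content in the list was not tested.

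Around CD38, 8 of 10 genes of NAD use and calcium release had a log2 fold change above 0, with a median of 0.04 and no gene past the test or without overlap. NMNAT2, the most abundant, an enzyme of NAD synthesis in neurons, had 27.4 ± 3.13 and 28.4 ± 0.295 FPKM in the pubertal and prepubertal goats. The calcium channel genes RYR2 and TRPM2, downstream of the products of CD38, had means of 13.6 and 14.5 FPKM and of 3.9 and 3.72 FPKM. Around LNPEP, 6 genes of its vesicle traffic had a median of 0.04. SORT1, the most abundant, had 87.3 ± 9.28 and 88.2 ± 4.47 FPKM, whereas LRP1, an endocytic receptor, had 40.6 ± 9.64 and 30.3 ± 1.54 FPKM without overlap (unadjusted limma p 0.0346, adjusted 0.928). The 11 other peptidases had a median of 0.09, and 1 of them did not overlap: NPEPPS, the puromycin-sensitive aminopeptidase, with 59.9 ± 2.17 and 56.4 ± 0.886 FPKM (adjusted p in limma 0.962).

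Downstream of the receptors, 33 genes of G protein and calcium signalling were tested, and 6 were higher and 2 lower in the pubertal goats without overlap (5.91% and 3.84% over all genes), with a median log2 fold change of 0.07. FOS, an early response gene, stood at 26.8, 31.9 and 19.0 FPKM in the pubertal and at 14.0, 13.9 and 11.1 FPKM in the prepubertal goats. Every pubertal value was above every prepubertal one, and the log2 fold change was 0.92 (SE 0.18, unadjusted limma p 0.00102, adjusted 0.660). CCND1, the cyclin D gene, had 17.5 ± 1.54 and 13.7 ± 1.24 FPKM (adjusted p in limma 0.824). RGS2, which turns off the G protein of OXTR and AVPR1A, had 36.9 ± 4.5 FPKM in the pubertal and 45.2 ± 2.87 FPKM in the prepubertal goats (adjusted p in limma 0.883). MAP2K5 had 12.9 ± 0.227 and 14.8 ± 1.32 FPKM without overlap, and EEF2, the elongation factor that the pathway controls, 401 ± 2.02 and 360 ± 12 FPKM without overlap (adjusted p in limma 0.962 for both).

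The 6 steroid receptor genes, whose hormones act on the oxytocin system, all had a log2 fold change above 0, with a median of 0.08 and both stages overlapping for each. ESR1 and ESR2, the oestrogen receptors, had means of 4.38 ± 0.299 and 2.79 ± 0.757 FPKM in the pubertal and of 4.08 ± 0.696 and 2.66 ± 0.619 FPKM in the prepubertal goats. PGR, the progesterone receptor gene, had 3.30 ± 0.489 and 3.20 ± 0.545 FPKM. NR3C1 and NR3C2, the corticosteroid receptors, had 44.1 ± 2.17 and 9.41 ± 0.953 FPKM in the pubertal and 42.2 ± 4.08 and 8.39 ± 0.422 FPKM in the prepubertal goats.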

How the data were processed

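Hypothalamus RNA of 3 pubertal and 3 prepubertal goats was sequenced, 1 library per goat. According to the methods of the study, ribosomal RNA was removed, strand-specific reads were mapped to a goat genome with TopHat and Bowtie, and transcripts were assembled with Scripture and Cufflinks. The submitters' processing notes name Cufflinks 2.1.1 and Cuffdiff 2.1.1. The genome build is not given in the sources used here. FPKM was deposited by the authors for each transcript in each library, scaled for transcript length and mapped fragments, and lncRNA sequences. A further deposited table was used only to join transcripts to genes, and its group means, fold changes, p-values and q-values, which hold the authors' own comparison, were not used.

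FPKM was summed by gene and compared on the log2(FPKM + 1) scale with R 4.3.3 and limma 3.58.1 (a linear fit, then moderated two-sided tests by eBayes with trend), over genes with a mean of at least 0.1 FPKM, with p-values adjusted by Benjamini-Hochberg and called under 0.05. Fold changes on this scale understate the change of low genes. Each member had at most 1 transcript, so sums and single transcripts agree for the members. FPKM holds no counts, so the depth behind a value is unknown and no interval for counting error is given. Exact permutation tests and figures used pandas 2.3.3, matplotlib 3.10.9 and numpy 2.4.6 under Python 3.11.15. limma was tested on simulated data. Gene symbols came from the RefSeq table of ARS1.2, which matched 19083 of 20225 genes (94.4%), and no coordinates were taken from it.

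Named were all members, the most abundant gene of each list and up to 2 genes in each direction that changed most of those without overlap, every gene of the lists of other receptors, magnocellular factors and steroid receptors, the 3 genes nearest to each member, and XLOC_523219. Marker genes, neighbours, GAL, BST1, RYR2 and TRPM2 were named outside this rule, after values were seen. Items withheld from this text are not reported here by name. The members and lists were chosen with earlier results of these data known. The main fit had no replicate block. Alternatives were 0.1 as the pseudocount, a minimum of 1 FPKM or none, quantile normalization, median centring, no trend, a replicate block, single transcripts, and each library left out in turn. Not analysed here were OXT, and the list genes TRH, GNAQ, NFATC2, HCRT, NKX2-1, CLDN5 and PRL, which matched no transcript.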

Additional observations from a re-analysis of the deposited data

How the results depend on the processing

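No member passed an adjusted p of 0.05 in limma in any of the 14 alternatives, including the replicate block, in which the log2 fold change of CD38 was 0.43 with a standard error of 0.21 and an adjusted p of 1.0. Goats with the same replicate number did not deviate together over all genes (r of -0.0246, -0.101 and 0.0752 for numbers 1 to 3). The largest r, 0.157, was that of goats with unlike numbers, pubertal goat 2 and prepubertal goat 1. Such values cannot show whether goats with the same number shared a batch, and this was not tested. The replicate block gave 1 gene of all with an adjusted p under 0.05, and leaving out 1 library gave between 0 and 4. With 1 library left out, between 336 and 981 genes were higher and between 164 and 1239 lower at an unadjusted p under 0.05, the extremes being the fits without prepubertal goat 1 and without pubertal goat 1, and single transcripts gave 476 lower. The cause was not tested. The log2 fold change ranged from 0.09 to 0.77 for CD38, from -0.07 to 0.04 for OXTR, from -0.17 to 0.03 for AVPR1A and from -0.06 to 0.06 for LNPEP with 1 library left out. OXTR turned to 0.04 without pubertal goat 3 and to 0.03 without prepubertal goat 2, AVPR1A to 0.03 without prepubertal goat 2, and LNPEP to -0.06, -0.02 and -0.01 without pubertal goat 1, prepubertal goat 1 and prepubertal goat 3, and to -0.0032 with median centring, all within the standard error of the estimate with 6 libraries. With 1 library left out, the correlation of LNPEP with CD38 ran from -0.548 to 0.0683 (without pubertal goat 3), and that of CD38 with AVPR1A from -0.457 to 0.754 (without prepubertal goat 2). The correlation of CD38 with XLOC_523219 was 0.929 to 0.99 with 1 library left out, at an exact permutation p of 0.05 without pubertal goat 1 (0.979), pubertal goat 3 (0.929) or prepubertal goat 1 (0.982). That p is the smallest that the values tied at 0 allow there. A minimum of 1 FPKM leaves out OXTR and AVPR1A. The depth behind the low values of AVP, OXTR, AVPR1A, AVPR1B and AVPR2 is unknown.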
